A study of Mus musculus with 6 samples.

Results

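Border macrophage and monocyte markers were 10 genes chosen by symbol from the count table: Lyz2, Lyz1, Mrc1, Pf4, Cd163, Lyve1, Ms4a7, Ms4a6c, F13a1 and Ccr2. All 10 were among its 37411 gene rows, and each held at least 1 count in some library. The cultures were primary hippocampal neurons from newborn (P0) CD-1 IGS mice, kept for 16 days in vitro (DIV 16). One group of 3 received 50 µM forskolin, a plant compound that switches on adenylyl cyclase, the enzyme that makes cyclic AMP, for 30 min (libraries 4, 5 and 6). The other 3 received an equal volume of the solvent dimethyl sulfoxide (DMSO; libraries 1, 2 and 3). The comparison addresses cyclic AMP dependent gene expression. The labels give no batch and do not say whether the libraries came from separate cultures or pooled pups, so p-values measure the spread between these 6 libraries, which may be technical.

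Macrophages of the brain's borders live in the meninges, the perivascular spaces and the choroid plexus. They share a myeloid program with microglia, the macrophages of the brain tissue itself, but carry more of the mannose receptor Mrc1, the scavenger receptor Cd163, the hyaluronan receptor Lyve1, the chemokine Pf4 and the membrane protein Ms4a7. Monocytes, which circulate in blood, carry the chemokine receptor Ccr2, and the lysozyme Lyz2 is abundant in monocytes and many macrophages.

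The label held in part. Lyz2, Mrc1, Ms4a7 and Ms4a6c were plentiful in forskolin libraries 4 and 5 and scarce in the other 4 libraries. Cd163 and Ccr2 never exceeded 3 counts in any library, and the monocyte gene Ly6c2 held 0 counts in all 6. Lyve1 was present in every library, at 1.78 to 3.85 CPM (counts relative to the library size as scaled by TMM, edgeR's normalization). The genes are therefore treated as a marker set and not as a cell type. In these bulk libraries, more cells of a type and more RNA per cell cannot be told apart.

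Total counts ran from 28342764 to 47548379 per library. Library 6 stood apart from libraries 4 and 5 in these markers and their myeloid relatives, so results are given with and without it. Mitochondrial ribosomal RNA took 14.0 to 23.7% of counts with DMSO and 26.9 to 33.3% in the forskolin libraries, which did not overlap (exact two-sided permutation p = 0.1, the smallest that 3 against 3 allows). Its part in the results was not tested. The activity gene Fos, one of the earliest transcripts induced by cyclic AMP, was at 101 to 186 CPM in the DMSO libraries. It was at 831, 902 and 448 CPM in libraries 4, 5 and 6, so that library 6 lay above the DMSO range in this gene (edgeR log2 fold change 2.46, adjusted p = 0.0375). Library 6 was above every DMSO library in 6 of 8 activity response genes, against 26.1% of genes with any count. In library 6 Junb, at 35.4 CPM, lay below its DMSO range of 46.2 to 117 CPM. Egr1, at 115 CPM, lay inside its DMSO range of 83.4 to 123 CPM.

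Lyz2 and Lyz1 are neighbouring lysozyme genes whose reads could be mistaken for each other, so their sequences are shown first. In the GENCODE M21 annotation of GRCm38, Lyz2 lies at chr10:117277331-117282321 and Lyz1 at chr10:117287797-117292868, both on the minus strand. Their coding sequences are 447 bases long and differ at 22 bases, an identity of 95.1%. The longest stretch without a difference is 118 bases. Of the 1286 stretches of 31 bases in the longest coding transcript of Lyz2, 32.8% also occur in Lyz1. The 90 bases of the coding sequence that hold the most differences, bases 43 to 132 from the start codon, are printed with the 13 differing bases in capitals.
Lyz2: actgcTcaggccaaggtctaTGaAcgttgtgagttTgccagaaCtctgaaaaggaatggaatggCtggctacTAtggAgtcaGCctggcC
Lyz1: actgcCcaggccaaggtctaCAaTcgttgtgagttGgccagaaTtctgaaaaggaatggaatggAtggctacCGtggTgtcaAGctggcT

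The pair is also alike around and upstream of the start sites. RefSeq promoter sequences (GRCm38.p6) were matched for 9 of the 10 markers, with 11 start sites in all; Lyve1 had no entry. The 130 bases before the RefSeq start site of Lyz2, chr10:117282273-117282402, and of Lyz1, chr10:117292869-117292998, both on the minus strand, were compared base by base without gaps. They were identical at 120 positions (92.3%), the last 50 bases included. The annotations differ here: 49 bases of the Lyz2 window lie inside the GENCODE gene, and 0 of the Lyz1 window. Capitals mark the 10 positions that differ.
Lyz2: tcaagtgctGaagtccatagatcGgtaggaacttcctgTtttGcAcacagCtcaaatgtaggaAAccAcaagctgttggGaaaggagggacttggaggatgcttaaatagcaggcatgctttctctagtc
Lyz1: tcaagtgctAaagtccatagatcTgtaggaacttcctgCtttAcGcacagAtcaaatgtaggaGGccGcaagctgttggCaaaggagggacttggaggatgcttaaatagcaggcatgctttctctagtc

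Because several markers were high in the same libraries, the 250 bases before each RefSeq start site were searched on both strands for fixed letters. The letters GAGGAA, the core of the box bound by the myeloid factor PU.1, occur in 23.3% of all 32851 RefSeq promoters. They were found in 3 of the 11 promoters of the markers, which belong to Mrc1, Pf4 and F13a1. The longer GAGGAAGT, which contains those letters, is in 2.44% of all promoters and was found only in that of Pf4. The full cyclic AMP response element TGACGTCA, in 1.55% of promoters, was in 0 of the 11. The shorter TGACG, which the full element contains, is in 17.8% and was in 1. That window precedes an internal start site of F13a1, and all 250 of its bases lie inside the GENCODE gene. Mrc1 is shown because its window holds GAGGAA 3 times, each on the opposite strand and so written TTCCTC, in capitals (chr2:14229164-14229413, plus strand; the last 22 bases lie inside the GENCODE gene).
Mrc1: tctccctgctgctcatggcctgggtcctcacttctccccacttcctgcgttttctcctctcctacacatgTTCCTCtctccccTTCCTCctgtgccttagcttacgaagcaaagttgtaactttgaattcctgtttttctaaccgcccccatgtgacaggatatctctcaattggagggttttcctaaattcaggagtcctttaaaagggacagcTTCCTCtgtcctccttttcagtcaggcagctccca
These matches describe the letters only.

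Lyz2, which encodes the bacteriolytic enzyme lysozyme of phagocytes, was the most abundant of the 10. It held 204, 154 and 91 counts in DMSO libraries 1, 2 and 3, and 8196, 9321 and 285 counts in forskolin libraries 4, 5 and 6. As CPM these were 6.37, 5.05 and 2.55 against 174, 274 and 8.51. Libraries 4 and 5 were far above every other library, and library 6 lay just above the highest DMSO library, so the groups did not overlap. The group means were 4.66 ± 1.94 and 152 ± 134 CPM (SD, n = 3). The edgeR log2 fold change was 5.03 ± 1.17 (SE), with an adjusted p of 0.0939 over all genes tested. Without library 6 it was 5.58 ± 0.39 (SE; edgeR adjusted p = 0.00193). Set against the pooled DMSO counts, library 6 alone was 1.86 times as high, with a 95% exact interval of 1.60 to 2.16 that covers counting error only. The DMSO libraries themselves ranged from 2.55 to 6.37 CPM.

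Lyz1, the lysozyme best known from Paneth cells of the gut, was nearly absent. Its counts were 0, 0 and 1 with DMSO and 9, 3 and 0 in the forskolin libraries, too few for the test. Over all forskolin libraries against all DMSO libraries the ratio was 10.3, with a 95% exact counting interval of 1.52 to 439. Lyz1 made up 0.110% of the counts of the pair in library 4 and 0.0322% in library 5. The 2 genes were thus counted very unequally, although their transcripts share long stretches. How the authors' counting divided shared reads is not given in the sources used here, so the Lyz1 counts are uncertain.

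**Figure D1:**
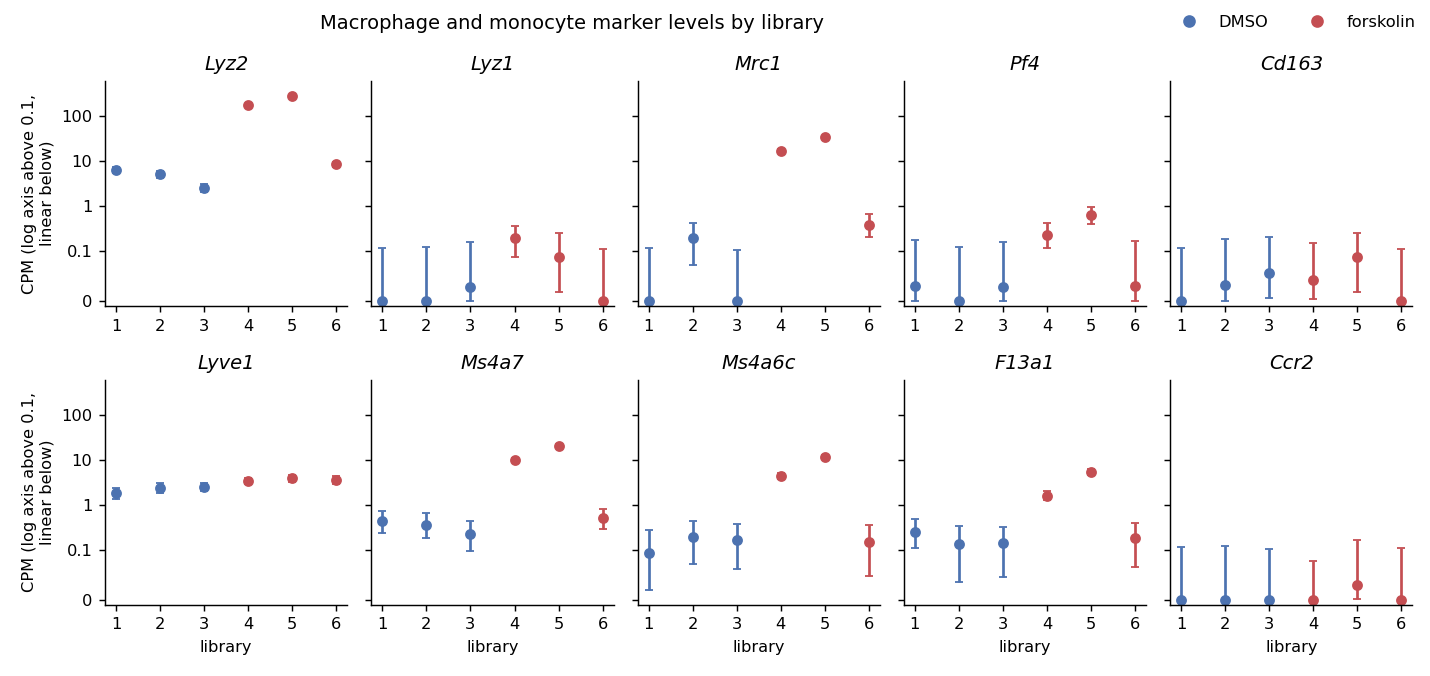
Levels of the 10 markers in each library, in CPM on an axis that is logarithmic above 0.1 and linear below, with DMSO libraries 1 to 3 in blue and forskolin libraries 4 to 6 in red; bars are two-sided 95% exact Poisson intervals, which cover counting error only. Lyz2, Mrc1, Ms4a7, Ms4a6c and F13a1 are high in libraries 4 and 5 and low in library 6, whereas Lyve1 lies between 1.78 and 3.85 CPM throughout.

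Mrc1, the mannose receptor CD206, had the largest fitted change of the 4 markers tested. The gene spans chr2:14229392-14332057 on the plus strand, contains the microRNA gene Mir511 and shares no 31-base stretch with another annotated gene. Its counts were 0, 6 and 0 with DMSO and 809, 1157 and 13 in libraries 4, 5 and 6. In CPM the forskolin libraries held 17.2, 34.0 and 0.388, and DMSO library 2 held 0.197. Only DMSO library 2 gave the control group any counts, so the size of the change rests on 6 reads, and the gene entered the test through the forskolin libraries. The edgeR log2 fold change was 8.04 ± 1.87 (SE; adjusted p = 0.0939), and 8.60 ± 0.78 (SE; adjusted p = 0.00286) without library 6. Without DMSO library 2 every remaining control was at 0 and the fitted value had no defined size. Library 6 had 6.35 times the pooled DMSO level, with a 95% exact counting interval of 2.25 to 20.4.

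Ms4a7 and Ms4a6c belong to a family of tetraspanning membrane proteins expressed in myeloid cells, and both lie on chromosome 19. Ms4a7 (chr19:11321039-11336146, minus strand) is used to tell border macrophages from microglia. It held 14, 11 and 8 counts in the DMSO libraries against 464, 698 and 17 in libraries 4, 5 and 6. These were 0.437, 0.361 and 0.224 CPM against 9.86, 20.5 and 0.508 CPM. All forskolin libraries lay above all DMSO libraries, though library 6 only narrowly. The log2 fold change was 4.91 ± 1.21 (SE; edgeR adjusted p = 0.105). It was 5.46 ± 0.42 (SE; edgeR adjusted p = 0.00281) without library 6.

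Ms4a6c (chr19:11469366-11482192, plus strand) had 3, 6 and 6 counts with DMSO and 204, 391 and 5 in libraries 4, 5 and 6. Library 6, at 0.149 CPM, lay inside the DMSO range of 0.0937 to 0.197 CPM, so the groups overlapped. The gene did not pass the low-count filter with all 6 libraries. Without library 6 it passed that filter, through libraries 4 and 5 where it is high, and had a log2 fold change of 5.64 ± 0.54 (SE; edgeR adjusted p = 0.00306). With all 6 libraries and a filter of mean CPM of at least 1 in its place, the value was 5.11 (edgeR adjusted p = 0.125). The annotated transcript BE692007 runs over it on the opposite strand and shares 56.9% of its 31-base stretches. With the strand setting unknown, reads from those shared stretches cannot be assigned to 1 gene of the pair. With all other annotated genes counted, 64.0% of the 31-base stretches of Ms4a6c were shared. BE692007 was itself assigned 0 counts with DMSO and 10, 4 and 0 in libraries 4, 5 and 6.

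F13a1 encodes the A subunit of coagulation factor XIII, made by macrophages and megakaryocytes. It lies at chr13:36867178-37050244 on the minus strand. Its counts were 8, 4 and 5 with DMSO and 75, 185 and 6 in the forskolin libraries. In CPM libraries 4 and 5 held 1.59 and 5.44, while library 6, at 0.179, fell among the DMSO values of 0.131 to 0.2498. Like Ms4a6c it failed the low-count filter with all 6 libraries and passed it without library 6, through libraries 4 and 5; the log2 fold change was then 4.29 ± 0.62 (SE; edgeR adjusted p = 0.00564). With all 6 libraries and the filter on mean CPM it was 3.79 (edgeR adjusted p = 0.142). Antisense genes are annotated over it.

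Pf4, platelet factor 4, is a chemokine of platelets that border macrophages also make (chr5:90772435-90773383, plus strand). It was rare: 1, 0 and 1 counts with DMSO and 11, 22 and 1 in libraries 4, 5 and 6. The ratio of all forskolin to all DMSO libraries was 14.6, with a 95% exact counting interval of 3.73 to 125, and the groups overlapped because of library 6. Pf4 and F13a1 are both also platelet genes. Of 8 other platelet and megakaryocyte genes, Ppbp and Treml1 held at most 1 count in any library, and Gp9 held 4 counts in each of libraries 4 and 5 and 0 elsewhere. The integrin gene Itga2b was at 1.31 to 2.06 CPM with DMSO and 3.84, 2.85 and 1.05 CPM in libraries 4, 5 and 6 (edgeR adjusted p = 0.4097, and 0.0335 without library 6). Gp1bb, the most abundant of the 8, was at 8.78 to 10.3 CPM with DMSO and lower in every forskolin library, at 4.55, 4.53 and 6.57 CPM (edgeR adjusted p = 0.0961, and 0.0055 without library 6). The summed level of the 8 genes was 13.7 to 15.1 CPM with DMSO and 9.84 to 11.2 CPM in the forskolin libraries, and its part in the marker values was not tested.

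Cd163 (chr6:124304656-124330527, plus strand), which takes up haemoglobin bound to haptoglobin, had 0, 1 and 2 counts with DMSO and 2, 3 and 0 in the forskolin libraries. Ccr2 (chr9:124101950-124113557, plus strand), the receptor that draws monocytes from blood to tissue, had 1 count in library 5 and 0 in every other library. Both groups were at or under 3 counts per library in these genes, so no fold is given. A count of 0 allows a level of up to 3 counts, which is 0.0637 to 0.0984 CPM depending on the library, for counting error only. This limit is one-sided; the two-sided 95% Poisson intervals in the plot of levels by library reach higher at 0 counts, to 0.0784 to 0.121 CPM for Ccr2.

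Lyve1, a hyaluronan receptor of lymphatic endothelium and of a subset of border macrophages, lies at chr7:110850607-110863239 on the minus strand. It held 57, 72 and 89 counts with DMSO and 158, 131 and 119 in libraries 4, 5 and 6. In CPM these were 1.78, 2.36 and 2.50 against 3.36, 3.85 and 3.55. Every forskolin library was above every DMSO library, and library 6 lay between libraries 4 and 5. The means were 2.21 ± 0.38 and 3.59 ± 0.25 CPM (SD, n = 3). The log2 fold change was 0.69 ± 0.23 (SE; edgeR adjusted p = 0.165), and 0.68 ± 0.23 (SE; edgeR adjusted p = 0.0659) without library 6. With each library's trend on GC content removed, an alternative chosen after seeing the data, it was 0.56 (edgeR adjusted p = 0.417). Endothelial genes were mixed. Flt4, a lymphatic receptor gene, held at most 7 counts in any library, and Cldn5 at most 2. The receptor gene Kdr was at 8.07 to 26.0 CPM with DMSO and 8.48 to 22.3 CPM in the forskolin libraries, and the cadherin gene Cdh5 at 3.87 to 9.09 and 1.62 to 9.60 CPM. Pecam1, an adhesion molecule of endothelium and of some blood cells, was at 0.263 to 0.421 CPM with DMSO and 1.55, 1.97 and 0.508 CPM in libraries 4, 5 and 6 (edgeR adjusted p = 0.132, and 0.0051 without library 6). Prox1, a transcription factor of lymphatic endothelium and also of hippocampal granule neurons, was at 41.0 to 61.5 CPM with DMSO and 46.9 to 103 CPM in the forskolin libraries.

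Counted together, 0 of the 10 markers passed edgeR's adjusted p threshold of 0.05 with all 6 libraries, where 0.172% of 16233 tested genes were called higher and 1.34% lower. Only Lyz2, Mrc1, Lyve1 and Ms4a7 entered that test, and all 4 had an unadjusted p under 0.05, as did 3619 genes overall. Limma-voom called 0 of the 4, against 0.148% of genes called higher. DESeq2 called Lyz2 (adjusted p = 0.000546), Mrc1 (0.00851) and Ms4a7 (1.16e-05), against 5.33% of genes called higher; Lyve1 had 0.0571. Without library 6, edgeR tested 6 markers and called 5 of them higher, all but Lyve1, against 16.5% of genes. Library 6 was set apart for its low values in these same markers, and Mrc1, Ms4a6c and F13a1 entered this test through libraries 4 and 5, so the 5 calls are a description. Without any other single library it called 0 of them, and 0 genes of all those tested. Limma-voom with library quality weights called all 4 it tested, against 21% of genes.

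**Figure D2:**
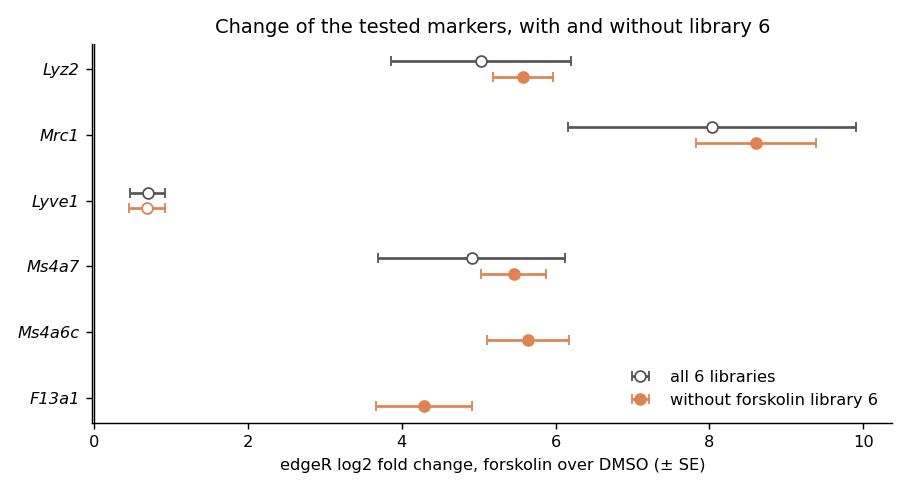
Log2 fold change of forskolin over DMSO with its standard error, from edgeR's fit of all 6 libraries (grey) and of 5 libraries without library 6 (orange), with filled points where the adjusted p is under 0.05. Mrc1 lies at 8.04 and 8.60 and Lyve1 at 0.69 and 0.68; of these 2 fits, Ms4a6c and F13a1 entered only the fit without library 6.

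The groups did not overlap for 4 of the 10 markers, with forskolin higher; among all genes with any count this share was 8.49%. With DMSO library 1, 2 or 3 left out, 6, 4 and 4 markers did not overlap, against 12.4%, 12.3% and 15.2% of genes with any count. With forskolin library 4, 5 or 6 left out it was 4, 4 and 8 markers, against 11.2%, 12.3% and 25.4%. Libraries 4 and 5 were above every DMSO library in 8 of 10 markers, all but Cd163 and Ccr2; among genes with any count this held for 25.4%. Library 6 was above every DMSO library in 4 of 10, Lyz2, Mrc1, Lyve1 and Ms4a7, against 26.1% of genes with any count.

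Compared per kilobase of the longest coding transcript, Lyz2 led by a wide margin. In libraries 4 and 5 it stood at 132 and 208 CPM per kilobase. Ms4a7 followed at 6.25 and 13.01, Mrc1 at 3.197 and 6.33, and Ms4a6c at 2.35 and 6.24; the range of Mrc1 overlapped those of the other 2 genes. Lyve1 (1.16 and 1.33), F13a1 (0.403 and 1.38) and Pf4 (0.397 and 1.10) came next, and the range of F13a1 overlapped those of the other 2. The order was different in the DMSO libraries, where Lyz2 at 1.94 to 4.84 CPM per kilobase was followed by Lyve1 at 0.615 to 0.863 and Ms4a7 at 0.142 to 0.277. Those 3 ranges did not overlap.

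Libraries 4 and 5 also differed from each other. Scaled to library size, library 5 held 1.57 times as much Lyz2 as library 4 (95% exact counting interval 1.53 to 1.62), 1.98 times as much Mrc1 (1.81 to 2.17) and 2.08 times as much Ms4a7 (1.85 to 2.35). The ratio was 2.65 for Ms4a6c (2.23 to 3.16) and 3.41 for F13a1 (2.60 to 4.52). Lyve1 was alike in the pair at 1.15, with an interval of 0.903 to 1.46 that includes 1. Among 12 pan-myeloid genes the ratio ran from 1.69 (Aif1) to 4.05 (Itgam), so all 12 were higher in library 5, as were 6 of the 7 markers with at least 20 counts in the pair. Some genes went the other way. Among microglia identity genes Tmem119 was at 0.329 (0.258 to 0.416), Slc2a5 at 0.1699 (0.0654 to 0.373) and Sall1 at 0.849 (0.760 to 0.946), and the border macrophage gene Cd209f was at 0.221 (0.0906 to 0.471).

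**Figure D3:**
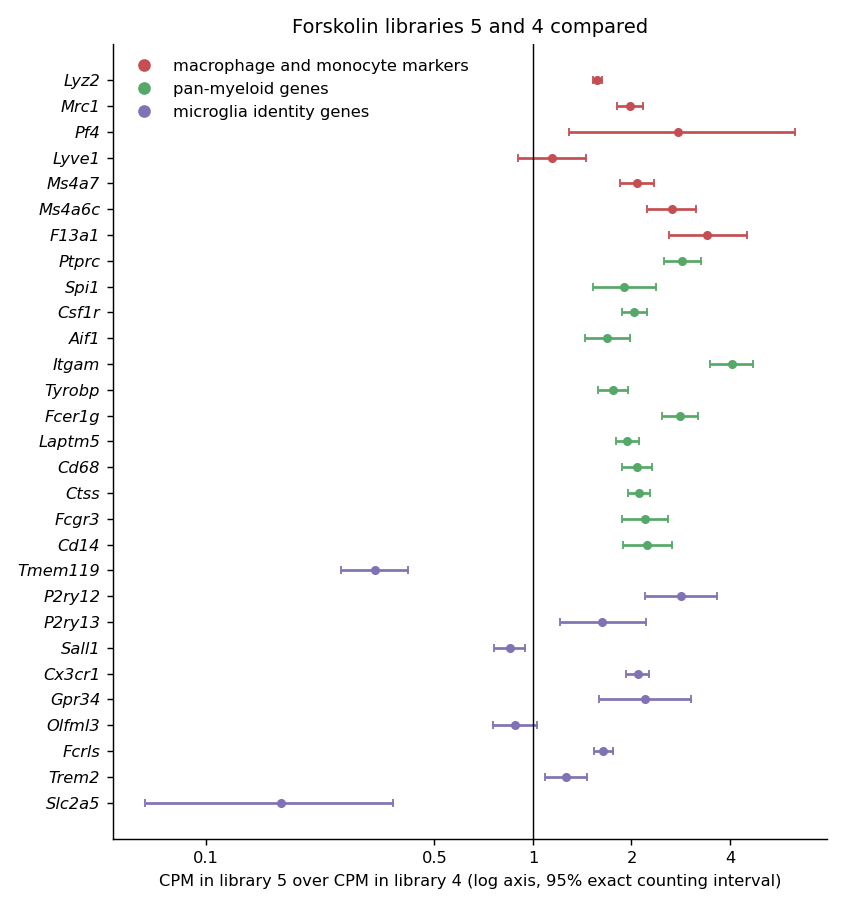
CPM in forskolin library 5 over CPM in forskolin library 4, on a log axis, with 95% exact intervals that cover counting error only, for markers (red), pan-myeloid genes (green) and microglia identity genes (purple) with at least 20 counts in the pair. Of the 7 markers, 6 lie above 1 with their whole interval, from Lyz2 at 1.57 to F13a1 at 3.41, and the interval of Lyve1 includes 1.

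General myeloid genes were high in the same libraries as the markers. Of 12 pan-myeloid genes 11 were tested with all 6 libraries and 0 were called. Without library 6 edgeR called 12 of 12 higher, against 16.5% of all genes. Itgam, Spi1 and Fcer1g entered that test only with libraries 4 and 5, where they are high. The protease Ctss was at 0.365 to 0.656 CPM with DMSO and 23.2, 48.7 and 0.627 CPM in libraries 4, 5 and 6. Laptm5 was at 0.365 to 1.16 CPM and then 21.9, 42.5 and 0.597 CPM. The growth factor receptor Csf1r was at 0.898 to 1.67 CPM and then 19.0, 38.8 and 1.64 CPM. In library 6 each of these 3 genes lay inside the DMSO range.

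Dividing by those genes shows how the markers stood relative to other myeloid transcripts within a library. Per 100 counts of the 12 pan-myeloid genes, Lyz2 had 63.8, 48.6 and 36.3 counts with DMSO and 135, 97.6 and 95.6 in libraries 4, 5 and 6. Mrc1 had 0, 1.89 and 0 against 13.3, 12.1 and 4.36. Ms4a7 had 4.38, 3.47 and 3.19 against 7.62, 7.31 and 5.70. In these 3 genes every forskolin library, library 6 included, lay above every DMSO library (exact two-sided permutation p = 0.1 for each, the smallest possible). On this scale, where the denominator itself is high in libraries 4 and 5, the same held for 0.604% of genes with any count. The separation depended on the denominator. Lyz2 kept it per Csf1r or Fcrls count but overlapped per Ctss, Laptm5 or Cx3cr1 count. Ms4a7 overlapped per Csf1r, Ctss, Laptm5 or Fcrls count, and per 100 Cx3cr1 counts it was lower with forskolin, at 44.4, 44.3 and 43.6 in libraries 4, 5 and 6 and at 47.1 to 66.7 with DMSO. For Mrc1 it held per Csf1r, Laptm5, Ctss and Fcrls count but not per Cx3cr1 count, where DMSO library 2 and library 6 were both at 33.3 per 100. F13a1 and Ms4a6c overlapped between the groups on the pan-myeloid scale, and F13a1 per 100 Cx3cr1 counts was lower with forskolin, at 7.18, 11.7 and 15.4 against 22.2 to 38.1. Lyve1 stood at 17.8 to 35.5 per 100 with DMSO, at 2.60 and 1.37 in libraries 4 and 5, and at 39.9 in library 6.

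**Figure D4:**
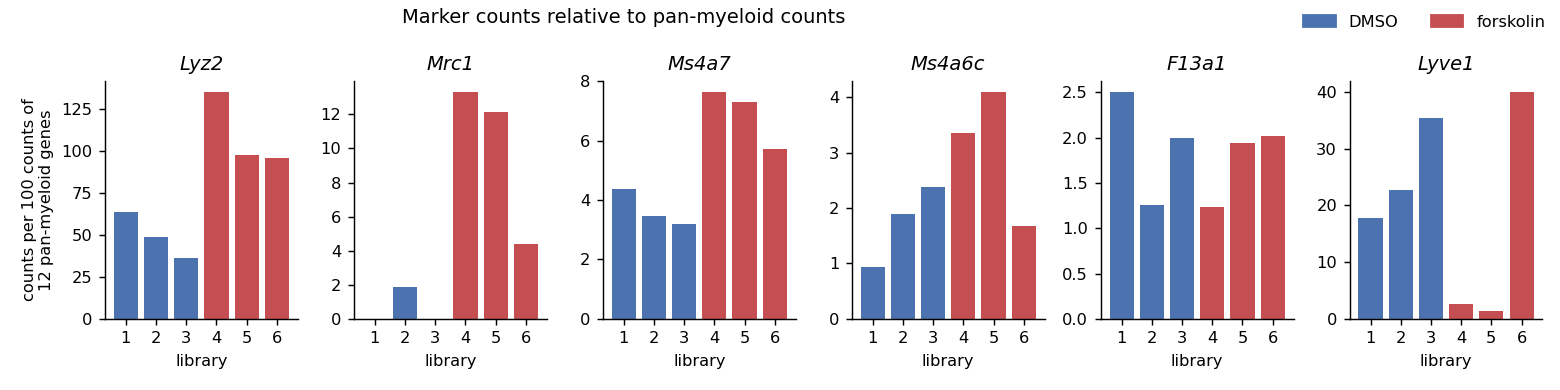
Counts of 6 markers per 100 counts of 12 pan-myeloid genes in each library (bars from 0; DMSO blue, forskolin red; each panel has its own scale). Mrc1 is at 13.3, 12.1 and 4.36 in libraries 4, 5 and 6 against at most 1.89 in the DMSO libraries, whereas Lyve1 is lowest in libraries 4 and 5.

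Other genes of border macrophages, a list of 16, gave 0 calls with all 6 libraries and 9 higher of 13 tested without library 6, where 16.5% of all genes were called higher. Of the 9, Cbr2, Siglec1, Fcna, Clec4n and Ms4a6d entered that test only with libraries 4 and 5, where they are high. The scavenger receptor Stab1 was at 0.337 to 0.853 CPM with DMSO and 36.7, 76.2 and 1.10 CPM in libraries 4, 5 and 6. The fitted log2 fold change was 5.84 (edgeR adjusted p = 0.1004) and 6.40 without library 6 (0.00199). The transcription factor Maf, which is not confined to macrophages, had a fitted log2 change of 0.49 (edgeR adjusted p = 0.329). Apoe, the apolipoprotein that astrocytes make in quantity, was at 2620 to 2973 CPM with DMSO and 2283, 2463 and 1337 CPM in libraries 4, 5 and 6, lower in every forskolin library (edgeR adjusted p = 0.302). Among 11 other monocyte genes, 0 were called with all 6 libraries and 3 of 6 tested were higher without library 6, against the same 16.5%. The 3 most abundant, Fn1, Vcan and Itga4, are also made by other brain cells; they had log2 fold changes of 0.43, 0.40 and 0.28, with edgeR adjusted p-values of 0.663, 0.268 and 0.599. Vcan was among the 3 called without library 6 (edgeR adjusted p = 0.0423). The others were Cybb, a subunit of the phagocyte oxidase, and the leukocyte integrin Itgal. Cybb was at 0.1403 to 0.312 CPM with DMSO and 6.58, 21.2 and 0.299 CPM in libraries 4, 5 and 6. Its edgeR adjusted p was 0.114, and 0.00312 without library 6, a test it entered only with libraries 4 and 5. Itgal was at 0.0984 to 0.168 CPM and then 1.66, 4.03 and 0.239 CPM (0.00364 by edgeR without library 6, a test it entered through libraries 4 and 5). The monocyte genes Plac8 and Chil3 held at most 2 counts in any library.

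Of 11 microglia identity genes, 0 were called with all 6 libraries, and 6 of 9 tested were higher without library 6, against 16.5% of all genes. Of the 6, P2ry13, Gpr34 and Trem2 entered that test only with libraries 4 and 5, where they are high. Fcrls was at 0.814 to 1.72 CPM with DMSO and 36.0, 59.1 and 1.25 CPM in libraries 4, 5 and 6. The fractalkine receptor Cx3cr1 was at 0.477 to 0.656 CPM and then 22.2, 46.3 and 1.16 CPM. Sall1, a transcription factor of microglia that other brain cells also express, showed no such pattern, at 15.8 to 16.7 CPM and then 18.5, 15.7 and 11.3 CPM. Tmem119, which border macrophages largely lack, was at 3.09, 0.952 and 0.449 CPM with DMSO and 7.94, 2.62 and 0.328 CPM in the forskolin libraries. Of the 11 microglia identity genes, 6 lay above every DMSO library in both libraries 4 and 5, as did 14 of the 16 other border macrophage genes. Among genes with any count this held for 25.4%. Whether the lists differed in degree was not tested.

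Lists for other cells gave the surroundings of these markers. The summed level of 8 neutrophil genes was 0.0328 to 0.0625 CPM with DMSO and 0.119 to 0.4995 CPM in the forskolin libraries; Camp, Ngp and S100a8 were its highest members, and S100a9 and Ltf were at 0. Of 8 lymphocyte genes 4 were at 0 throughout, and only Cd79b passed 3 counts, with 16 and 46 in libraries 4 and 5. Cd79b was the only 1 of the 8 tested without library 6, a test it entered through those libraries. It was called higher there (edgeR adjusted p = 0.0205). Cd79a and Nkg7 came next in level. Of 5 erythroid genes only Alas2 was tested, and it was not called in either fit (edgeR adjusted p = 0.886 and 0.753); Hbb-bs had at most 14 counts and Hba-a2 at most 2. The 8 platelet and megakaryocyte genes, led by Gp1bb, Itga2b and Itgb3, gave 0 calls with all 6 libraries, and 1 higher and 1 lower of 4 tested without library 6. The 8 endothelial genes, led by Prox1, Kdr and Cdh5, gave 0 calls and then 1 higher of 4 tested. Without library 6, 16.5% of all genes were called higher and 2902 of 16941 lower.

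Neural lists differed as well. Among 10 neuron genes 2 were called lower with all 6 libraries, against 1.34% of all genes. Without library 6 it was 6, against 2902 of 16941 genes. The most abundant, Map2, was at 902 to 1347 CPM with DMSO and 877 to 1279 CPM in the forskolin libraries (edgeR adjusted p = 0.9096). The vesicular glutamate transporter Slc17a7 was at 885 to 1001 CPM with DMSO and 487, 475 and 723 CPM in libraries 4, 5 and 6. The synaptic vesicle gene Syt1 was at 553 to 822 CPM and then 402, 396 and 839 CPM. The 8 astrocyte genes, led by Gfap, Slc1a2 and Slc1a3, gave 0 calls and then 2 higher, against 16.5% of all genes. Of 8 oligodendrocyte lineage genes, led by Pdgfra, Olig1 and Mbp, 0 were called with all 6 libraries, and 3 higher and 2 lower without library 6. In that fit 16.5% of all genes were called higher and 2902 of 16941 lower. Myelin basic protein, Mbp, was at 38.0 to 42.8 CPM with DMSO and 210, 387 and 31.6 CPM in libraries 4, 5 and 6. The part of these lists in the marker values was not tested. Of 8 activity response genes, led by Fos, Junb and Egr1, 2 were called higher with all 6 libraries, against 0.172% of all genes. Without library 6 it was 7, against 16.5%.

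The genes most like the markers were sought among 11250 tested genes with a mean of at least 5 CPM and outside every list. Likeness was the Pearson correlation over the 6 libraries of log2 CPM with the mean of the 4 tested markers. The closest were Rps27l (r = 0.991), the kinase gene Sik1 (0.9904), Elovl7 (0.9904), Ckap2 (0.989), Diaph3 (0.988) and Riiad1 (0.988). With only 6 points, of which libraries 4 and 5 set the pattern, these coefficients are descriptions. Rps27l was at 19.97 to 22.0 CPM with DMSO and 34.3, 36.8 and 21.5 CPM in libraries 4, 5 and 6. Elovl7 had a wider span, at 2.33 to 3.12 CPM and then 12.04, 12.7 and 3.28 CPM.

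Lyz2 and Ms4a7 were the markers listed in the authors' deposited table, which holds 132 genes. In the authors' deposited table Lyz2 has the largest log2 fold change of all, 4.33 with a standard error of 0.332 and an adjusted p of 2.42e-35. DESeq2 on the deposited counts gave 5.03 with a standard error of 1.16. Ms4a7 has 2.04 in the authors' deposited table (adjusted p = 1.20e-06) and 4.92 with DESeq2 on the counts. The mean normalised count of Lyz2 in the authors' deposited table, 277, is 0.102 times the mean of 2730 that the deposited counts give. That is the lowest such ratio of the 132 genes, whose median is 0.841; Ms4a7 is at 0.751. The table and the counts thus do not describe Lyz2 alike, and the source of the difference was not tested.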

How the data were processed

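The values in the deposited count table are unnormalised counts of reads for each gene symbol, with 1 column for each of 6 libraries. Salmon, DESeq and GRCm38 are named in the submitters' processing notes without roles; annotation and strand setting are not given in the sources used here. Per the file headers, the authors' deposited table holds a mean normalised count (a signal), a log2 fold change, its standard error and test statistic (each a score), and p-values.

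Genes were kept with filterByExpr (minimum count 10, minimum total 15), scaled with TMM factors and tested with glmQLFTest of edgeR 4.0.16 (R 4.3.3) over 16233 genes, with Benjamini-Hochberg adjustment; scripts were tested on simulated data. SE is the absolute log2 fold change over the square root of F. Alternatives used limma 3.58.1 and DESeq2 1.42.0. For GC content, a lowess trend (span 0.3) of log2 CPM (prior count 2) was removed per library; 97.1% of tested genes had a value. Intervals are 95% exact. Depth, 28342764 to 47548379 counts per library, limits the precision of genes near 3 counts, whose counts carry no molecular identifiers.

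Members and the 13 other lists were chosen with earlier results of these data known. All 10 members, the 3 highest genes by mean CPM of each list and the 6 most correlated genes were to be named; other genes named, such as Tmem119, Pecam1, Itga2b and Cybb, were chosen after their values were seen. Of these lists, 3 genes are not reported here and were left out of the list counts.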

Additional observations from a re-analysis of the deposited data

How the results depend on the processing

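No paired analysis was possible because no replicate number occurs in both groups. Over all genes, edgeR called 28 higher and 217 lower. The counts were 796 and 979 with DESeq2, and 3403 and 3392 with library quality weights. Higher calls were 46 with no low-count filter, and lower calls 113 with RLE factors and 83 with upper-quartile factors. Leaving out 1 library gave 0 to 2796 higher and 0 to 2902 lower, and the upper values were those without library 6. The 3 alternatives chosen after seeing the data gave 0 and 0 with the GC trend removed, 2678 and 2774 with library 6 left out as well, and 3404 and 2740 with no filter and without library 6. Of the markers, 3 were called higher with DESeq2 and 4 with quality weights, against 5.33% and 21% of genes. With the GC trend and library 6 both removed it was 5, against 15.8% of genes. With no filter and without library 6 it was 6, against 12.8%, and Pf4 was added (edgeR adjusted p = 0.00197). Leaving out 1 library gave 0 to 5 marker calls, against 0 to 16.5% of genes called higher. It left 4 to 8 markers without overlap, where 11.2 to 25.4% of genes with any count did not overlap; the upper values are without library 6. No marker's fitted log2 fold change reversed its direction in the fits that gave it one; Lyz1, Pf4, Cd163 and Ccr2 were fitted only in the 2 with no filter. The cause of these shifts was not tested.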
